A study of Mus musculus with 12 samples.

Results

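The m6A-IP landscape of healthy mouse liver is described here by the merged m6A peaks that held at least 20 reads in each of the 3 control immunoprecipitation (IP) libraries. By this rule 5947 of 7460 distinct peaks were members and 1513 were not. Members were thus chosen by the read counts of these 3 libraries, so every value below is a description and carries no test. The control group was the liver of normal male C57BL/6 mice aged 12 weeks, labelled as controls and given neither surgery nor an agent in the labels. Their total RNA was broken into short fragments and enriched with an antibody against m6A. The study also holds 3 IP libraries of bile duct ligated mice, and 3 input libraries of each condition. Neither is used here.

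N6-methyladenosine (m6A) is a methyl mark placed on adenosines of mRNA by a writer complex built around the METTL3 and METTL14 proteins, mostly in a short consensus sequence. Erasers such as FTO and ALKBH5 can remove it, and readers such as the YTH domain proteins bind it and alter the stability, splicing or translation of the RNA. In mammalian mRNA the mark is known to be enriched in long internal exons and around the stop codon. The liver makes most plasma proteins, and its RNA is dominated by hepatocyte transcripts.

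The libraries held 15254737 reads in peaks in control replicate 1, 19251404 in replicate 2 and 19378332 in replicate 3. Members took 99.7%, 99.5% and 99.5% of them. A member had a median of 500, 612 and 636 reads in the 3 libraries. Levels are given in CPM, the reads per 1000000 reads in peaks after TMM scaling, as mean ± SD over the 3 libraries. IP reads mix the amount of a transcript with its methylation, and those cannot be told apart without the input. In a bulk tissue, fewer cells of a type and less RNA per cell cannot be told apart either. The labels number the samples without saying that each was a separate mouse, so the spread between libraries may be technical in part.

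Members were mostly short intervals of protein-coding genes. Their median width was 175 bases, with quartiles of 150 and 200 bases, while the 1513 other peaks had a median of 100 bases. Peaks of 75 bases or less were 9.18% of members and 46.8% of the others. At the other end, 162 members (2.72%) were wider than 1000 bases, up to 184670 bases, and held 2.37% of the reads. The deposited annotation listed 5325 members as mRNA, 378 nonsense-mediated decay transcripts, 233 processed transcripts, 7 antisense and 2 lincRNA. The mRNA class held 89.1% of the reads. Of the members, 5159 were annotated to 1 gene, 714 to 2 genes and 74 to 3 or more, and those of several genes held 17.4% of the reads. A peak of several genes cannot be assigned to any of them here, nor to a strand, since the counter's use of strand is unstated.

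The peaks named near the minimum differed between libraries. Just inside it lay a peak of Nuak1, an AMPK-related kinase, with 20, 64 and 37 reads, and a peak of Plod1, a lysyl hydroxylase of collagen, with 20, 24 and 118. A peak of Cep250, a centrosomal protein, had 120, 20 and 110 reads, a peak of Osbpl3 had 20, 168 and 73, and a peak of Ier5l had 20, 97 and 28. Just outside lay Cldn4, a claudin of bile duct cells, with 19, 254 and 306 reads. Epb41, a membrane skeleton protein, had 159, 460 and 19 reads there, and Dusp1, an immediate early phosphatase, had 19, 60 and 236. The last 2 just outside were Tenm3 with 19, 266 and 30 reads and Gja5, a gap junction protein, with 61, 202 and 19. In each of these 10 peaks the highest library had over 3 times the reads of the lowest. They were picked by a lowest count at the threshold, which favours peaks with a low library. Their spread is thus partly built in and does not show how often libraries disagree. The lowest of the 3 counts was between 20 and 29 in 81 members and between 10 and 19 in 54 other peaks. Of the 1513 other peaks, 676 reached 20 reads in 2 libraries, and 500 of these were listed without a read in the third. For 390, no read was listed in any of the 3 libraries.

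The profile was led by a few transcripts of secreted liver proteins. The strongest peak lay in the serine protease inhibitor genes Serpina3k and Serpina3m, followed by a peak of Fga, the fibrinogen alpha chain, a peak of Crp, the C-reactive protein of the acute phase, and a second Fga peak. Together these 4 peaks held 18.0 ± 3.13% of all reads in peaks (SD, n = 3). The next were Hspa5, the main chaperone of the endoplasmic reticulum, and Hp, the haemoglobin-binding plasma protein haptoglobin. Positions are in the unnamed genome build of the deposited table and count from 1.

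The Serpina3k and Serpina3m peak (chr12:104345538-104345712) had 1031567, 1273654 and 725123 reads, or 68060, 67400 and 36495 CPM. Replicates 1 and 2 were close and replicate 3 was the lowest. Its mean was 57318 ± 18037 CPM, 1768 times the member median of 32.4 CPM. The Serpina3 genes are near-identical copies, so the assignment of these reads to one of them is uncertain.

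The stronger Fga peak (chr3:83031181-83031480) had 890904, 861628 and 771988 reads and 47743 ± 10135 CPM. The weaker one (chr3:83031606-83031805) began 125 bases after it and had 589789, 573915 and 491709 reads and 31343 ± 7133 CPM. Replicate 1 was highest and replicate 3 lowest in both. With another, small peak the gene summed to 98325, 76215 and 63845 CPM, a mean of 79461 ± 17468 CPM or 7.95% of all reads, the most of any gene. The peaks stood at 69.6% and 74.6% of the way along a gene span of 7552 bases.

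The Crp peak (chr1:172698643-172699092) had 695283, 816535 and 875077 reads. After scaling these were 45873, 43210 and 44042 CPM, nearly equal in the 3 libraries, with a coefficient of variation (SD over mean) of 3.07%. The mean was 44375 ± 1362 CPM. The annotation gives Crp a span of 134977 bases and puts this peak in the first 1% of it, so its place along the gene depends on that annotated span.

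**Figure D1:**
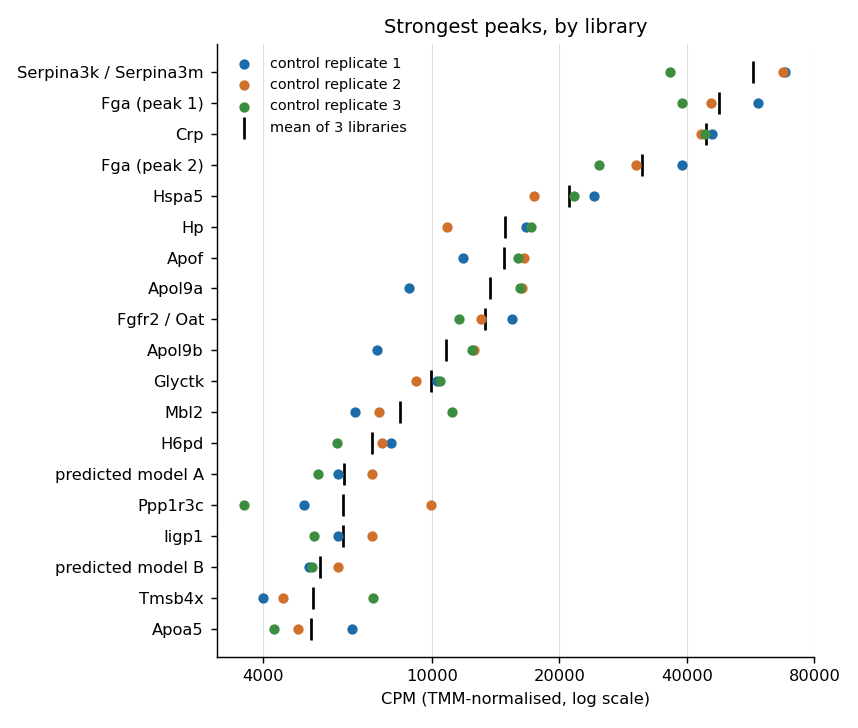
Peaks among the 20 with the highest mean level in the 3 control libraries, without those not reported here, with TMM-normalised CPM on a log axis, points for libraries and a vertical bar for their mean. The levels run between 5175 CPM for Apoa5 and 57318 CPM for the Serpina3k and Serpina3m peak, and Crp is the peak with the closest points, at 45873, 43210 and 44042 CPM.

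Below them, Hspa5 (chr2:34775912-34776286) had 365599, 329268 and 429903 reads and 21061 ± 3385 CPM. Hp (chr8:109575178-109575377) had 252217, 204655 and 339646 reads and 14855 ± 3493 CPM, with replicate 2 below the other libraries. Apof, an apolipoprotein that inhibits lipid transfer between lipoproteins, had 179679, 311523 and 317059 reads (chr10:128269422-128269721) and 14766 ± 2535 CPM. Here replicate 1 was the low library. The same held for a pair of apolipoprotein L genes. Apol9a (chr15:77403914-77404138) had 8847, 16277 and 16108 CPM and Apol9b (chr15:77736062-77736261) had 7403, 12574 and 12409 CPM. Reads may be split between these near-identical copies, so their separate levels are uncertain.

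A peak at 13366 ± 1970 CPM (chr7:132557853-132558052), with 234615, 246394 and 230111 reads, was annotated to both Fgfr2, a fibroblast growth factor receptor, and Oat, the mitochondrial ornithine aminotransferase. The annotated Fgfr2 span of 2960900 bases contains all of Oat, whose span runs from base 132557478 to base 132576398. The peak lies in both, and the table alone does not assign it.

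The remaining strong peaks included several enzymes. Glyctk, a glycerate kinase, shared its peak (chr9:106155782-106156031) with an unnamed gene and had 9975 ± 709 CPM. H6pd, a hexose-6-phosphate dehydrogenase of the endoplasmic reticulum, had 121572, 144234 and 118306 reads (chr4:149981125-149981524) and 7203 ± 1098 CPM. H6pd was lowest in replicate 3, and Glyctk was lowest in replicate 2.

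Secreted and regulatory proteins made up the rest. Mbl2, a mannose-binding lectin of the complement system, had 99998, 141537 and 221029 reads (chr19:30239374-30239598) and 8404 ± 2398 CPM. Apoa5, a regulator of plasma triglycerides, shared its peak (chr9:46270573-46270747) with an unnamed gene and had 5175 ± 1152 CPM. Tmsb4x, an actin-binding peptide, had 60374, 84122 and 143915 reads (chrX:167207243-167207442) and 5226 ± 1762 CPM. Mbl2 and Tmsb4x were both highest in replicate 3, whereas Apoa5 was highest in replicate 1.

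Iigp1, an interferon-inducible GTPase, had 91049, 136304 and 104662 reads and 6163 ± 982 CPM, and a predicted neighbouring gene model among the 20 strongest had nearly the same counts. Ppp1r3c, a subunit that targets a phosphatase to glycogen, had 75725, 187519 and 71384 reads (chr19:36733406-36733605). Its level of 9923 CPM in replicate 2 was far above the 4996 and 3593 CPM of replicates 1 and 3. With 6171 ± 3325 CPM and a coefficient of variation of 53.9%, it was the least even of the 20. The 20 included 2 predicted gene models, which are counted here without names.

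Peak width had little part in this order. Per kilobase of peak width, 19 of the 20 strongest peaks and 84 of the 100 strongest stayed in the top 20 and top 100. The Serpina3k and Serpina3m peak again came first, with 327532 CPM per kilobase, followed by both Fga peaks at 159143 and 156717, Crp at 98610 and Hp at 74274.

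When reads were summed over all peaks of 1 gene alone, the leading genes after Fga and Crp were Hspa5 at 21073 ± 3390 CPM and Hp at 14863 ± 3494 CPM. Among the 20 strongest genes with many peaks were Apob, the structural protein of very low density lipoprotein, with 7841 ± 770 CPM over 9 peaks, and Nudt7, a peroxisomal hydrolase of coenzyme A, with 6669 ± 1806 CPM over 5. Chdh, the mitochondrial choline dehydrogenase, had 4738 ± 550 CPM over 5 peaks. The 20 also held Tuba4a, an alpha tubulin, at 5111 ± 1505 CPM in 1 peak and H1f2, a linker histone, at 5071 ± 760 CPM in 2.

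The reads were concentrated in a small share of the peaks. The strongest peak alone held 6.76%, 6.62% and 3.74% of the reads of replicates 1, 2 and 3, and the 10 strongest held 29.4%, 26.8% and 24.5%. In both cases replicate 3 was the least concentrated. The 100 strongest peaks held 51.9%, 50.9% and 48.8%, a mean of 50.5 ± 1.56%. Counting error on these shares is small: the widest 95% Wilson half-width for the top 100 was 0.0251 percentage points. Such intervals cover counting error only, and the labels name no molecular identifiers.

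Only 96 peaks, 1.61% of the members, were needed to hold 50% of the mean reads. The strongest 10% of members, 595 peaks, held 74.4 ± 0.869%, and 1000 peaks held 81.6 ± 0.501%. The weaker 50% of members held 4.83%, 4.60% and 4.76%. A level above 1000 CPM was reached by 121 members, against a median of 32.4 CPM and quartiles of 14.8 and 86.2 CPM. The identity of the leaders was largely shared between libraries: 17 peaks were among the 20 strongest of every library, and 25 were among the 20 of any. For the 100 strongest, 80 were shared and 121 appeared in any library.

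**Figure D2:**
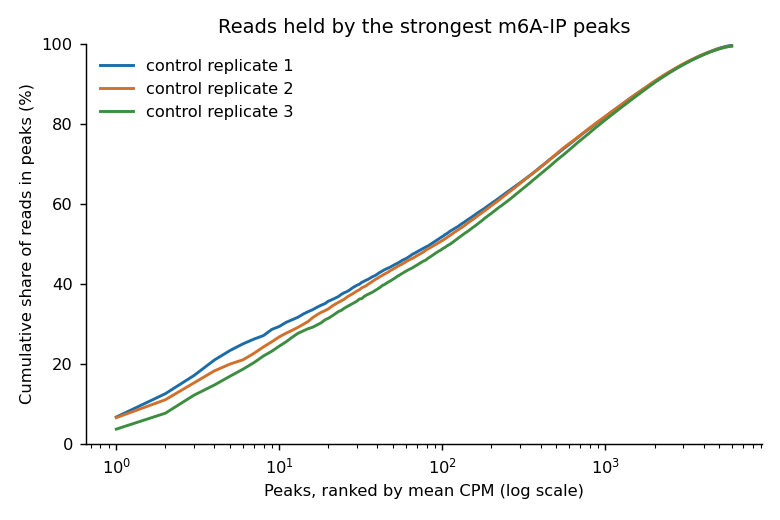
Cumulative share of reads in peaks (%) against the rank of the peak by mean CPM (log axis), with a line for each control library. The lines of replicates 1 and 2 lie above that of replicate 3 at 10 peaks (29.4%, 26.8% and 24.5%), and the 3 lines come closer by 1000 peaks, where they average 81.6%.

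Along the gene, members gathered at the 3′ end. The span was cut into 5 equal segments, numbered from the gene start. Of the 5159 members with a single gene, 3354 (65.0%) had their centre in segment 5, the last 20% of the annotated gene span, and 465 (9.01%) had it in segment 1. Segments 2, 3 and 4 held 290, 380 and 670 peaks, or 5.62%, 7.37% and 13.0%. The median place was 90.3% of the way along the span, with quartiles of 65.8% and 97.0%, and the median distance to the gene end was 2204.5 bases. The outermost bins were the fullest on each side: the last 5% of the span held 1823 peaks (35.3%) and the first 5% held 259 (5.02%). Non-members were placed much like members: 62.1% of the 1315 with a single gene lay in segment 5 and 11.3% in segment 1. The span includes introns and runs from the annotated gene start to the gene end, so it does not tell a stop codon or an untranslated region.

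Reads were placed less close to the end than peaks were. Segment 5 held 55.4%, 57.8% and 60.2% of the reads of single-gene members, a mean of 57.8 ± 2.42%. Segment 4 held 24.2 ± 1.83% of the reads although it held 13.0% of the peaks, and Fga alone gave 39.8% of the reads of that segment. Segment 1 held 9.35 ± 0.511%, of which Crp gave 57.7%. Without Crp, segment 1 held 4.18% of the reads and segment 5 held 61.1%. Without both Crp and Fga, segment 5 held 68.0%, a subset chosen after the values had been seen.

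**Figure D3:**
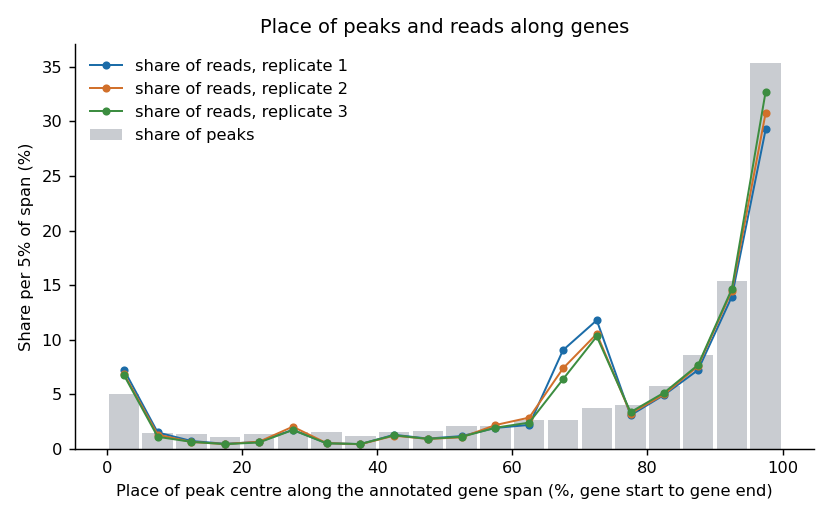
Share of single-gene peaks (grey bars) and of reads in each control library (lines), in %, for each 5% of the annotated gene span, left to right from gene start to gene end. Peaks are most frequent in the last 5% (35.3%), and the lines rise above the bars around 70% of the span, where both strong Fga peaks (69.6% and 74.6%) lie.

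The typical level also differed with place. Median levels were 17.0, 28.1, 32.0, 33.6 and 36.3 CPM from segment 1 to segment 5, and the median width was 175 bases in all 5. Of the single-gene members above 1000 CPM, 67 lay in segment 5, 18 in segment 4, 8 in segment 3, 3 in segment 2 and 6 in segment 1. They made up 1.29%, 1.03%, 2.11%, 2.69% and 1.998% of the peaks from segment 1 to segment 5. By this rate segments 3 and 4 were above segment 5, whose high count goes with its many peaks. The share of peaks in segment 5 grew with the length of the gene. It was 31.1% of 488 peaks in genes under 5 kb, 56.7% of 1619 peaks in genes of 5 to 20 kb, 73.8% of 2332 peaks from 20 to 100 kb and 78.1% of 720 peaks in longer genes. Measured in bases, peaks of longer genes lay farther from the end: the median distance to the gene end was 1028.75 bases in the shortest class and 3166.5 bases in the longest.

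Leading genes of each segment are given without predicted models. After Crp, the strongest peaks of segment 1 belonged to Ttr, the thyroid hormone and retinol carrier transthyretin, with 86036, 80939 and 64982 reads and 4410 ± 1208 CPM, and to Slc27a2, a fatty acid transporter and acyl-CoA synthetase, with 1787 ± 238 CPM. Gucd1 had 1511 ± 227 CPM and Apoa2, an apolipoprotein of high density lipoprotein, had 1206 ± 239 CPM. Segment 2 was led by Paqr9, a membrane protein of the progestin and adipoQ receptor family, with 32436, 75337 and 50850 reads and 2895 ± 968 CPM. Tmem167 followed at 1436 ± 116 CPM, Fem1a, a substrate receptor of a ubiquitin ligase, at 875 ± 90.4, Lrfn3 at 646 ± 136, and Ppp1r15b, which directs dephosphorylation of a translation initiation factor, at 611 ± 65.0. Ttr was lowest in replicate 3 and Paqr9 in replicate 1.

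Segment 3 was led by the Tuba4a peak (chr1:75216228-75216452), with 54158, 124375 and 102860 reads. Sephs2, an enzyme of selenocysteine synthesis, had 2058 ± 116 CPM in its strongest peak there, Ctsl, a lysosomal protease, had 1625 ± 356, Fzd4, a Wnt receptor, had 1404 ± 56.9, and Tor1aip2 had 1311 ± 188. Segment 4 was led by both Fga peaks, Hspa5, Apof and Ppp1r3c. Segment 5 was led by Hp, Apol9a, Apol9b and Mbl2, at 96.3% to 97.0% of their spans.

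Most genes had a single peak. The 5159 single-gene members belonged to 3720 genes, of which 2679 (72.0%) had 1 peak, 752 (20.2%) had 2, 211 had 3, 57 had 4 and 21 had 5 or more. Genes with more peaks had more reads in all: the median summed level was 31.8 CPM with 1 peak, 85.1 CPM with 2 and 170 CPM with 3 or more. The strongest single peak had medians of 31.8 CPM in genes of 1 peak, 61.6 CPM in genes of 2 and 102 CPM in genes of 3 or more. The highest of several peaks tends to be higher the more peaks there are. These medians thus do not show that the peaks of such genes were stronger one by one. The median gene span was 25.01 kb with 1 peak, 28.1 kb with 2 and 29.5 kb with 3. The 289 genes with 3 or more peaks were 7.77% of the genes and held 27.3% of the single-gene reads.

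The strongest peak held a median of 72.9% of a gene's reads in genes of 2 peaks, where it holds at least 50% by definition, 62.2% in genes of 3, 49.4% in genes of 4 and 44.0% in genes of 5. The strongest was the same peak in all 3 libraries in 800 of the 1041 genes with 2 or more (76.8%). It lay in segment 5 of the span in 696 genes (66.9%), near the 65.0% of all single-gene members there. It was the most 3′ peak in 491 genes. The number expected without any preference was not worked out, so no preference for the 3′ side is read from these counts. Neighbouring peaks of a gene were often close, with a median gap of 500 bases over 1439 pairs, and 448 pairs (31.1%) were 200 bases apart or less. Counting such close peaks as 1 left 165 genes with 3 or more peaks in place of 289.

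The most peaks, 9, were found in Apob, at 73.1% to 97.5% of its span of 39188 bases. The strongest (chr12:8009039-8009288) had 60878, 81376 and 72647 reads and 3993 ± 326 CPM, 50.9% of the gene's total, while the other 8 lay between 318 and 821 CPM. Nsd1, a histone H3 methyltransferase, had 7 peaks that summed to 118 ± 16.0 CPM. These lay in 3 groups, near the gene start (3.64% of the span), at 33.1% to 34.4%, and at 94.4% to 95.9%. Pcdh1, a protocadherin, had 7 peaks that summed to 620 ± 82.3 CPM, all between 34.2% and 57.7% of its span.

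Rnf213, a large ubiquitin ligase, had 6 peaks and 859 ± 185 CPM. Its peak near the gene end, at 99.0% of the span, held 741 ± 167 CPM (8313, 15721 and 16750 reads), and the other 5 lay together at 50.3% to 53.2% with 15.5 to 29.8 CPM each. Gdf2, which encodes the circulating growth factor BMP9 made by liver stellate cells, had 6 peaks and 238 ± 42.5 CPM. They were spaced from 62.7% to 95.9% of the span, and the strongest had 78.1 ± 28.3 CPM. These 5 genes thus differed in layout, from 1 dominant peak in Rnf213 and Apob to several of like level in Nsd1.

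Listed genes show which liver functions had m6A-IP peaks. Of the 726 genes of the 30 lists, 230 had a member peak of their own. Levels of genes are compared here per kilobase of peak width, where the median of all 3720 genes was 206 CPM per kilobase, and a level in CPM is the sum over the gene's peaks. With the same reads, a wide peak gives a lower level per kilobase. Genes without a peak are not shown to lack m6A, since the sources used here name neither the peak caller nor its threshold.

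Of 49 plasma protein genes, 19 had a peak of their own and 16 of these were above the median gene per kilobase. Their median was 1047 CPM per kilobase. Besides Fga, Apob, Ttr and Apoa2, the leaders were Apoa1, the main protein of high density lipoprotein, with 1488, 1535 and 1333 CPM, and Serpinc1, the clotting inhibitor antithrombin, with 850, 803 and 851 CPM. Both differed little between libraries. In all, 23 of the 49 genes had no peak, and 4 had only peaks shared with other genes. Of 20 acute phase genes, 8 had a peak, with a median of 1693 CPM per kilobase. Crp and Hp were followed by Saa4, a serum amyloid A, with 330, 948 and 488 CPM, by Mt1, a metallothionein, with 593, 308 and 53.3 CPM, and by Steap4, a metalloreductase, with 323, 112 and 104 CPM. The last members of that list were thus far less even than Crp. Orm1, an acid glycoprotein, had 34.0 ± 18.8 CPM. The 27 plasma and acute phase genes together held 18.0%, 14.6% and 14.4% of all reads in peaks, most of it from Fga and Crp.

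Of 27 genes of bile acid synthesis and transport, 11 had a peak, and 9 of these were above the median gene per kilobase. Slc10a1, the sodium-dependent bile acid uptake carrier NTCP, led with 2166, 3152 and 3018 CPM, followed by Slco1a1, an organic anion uptake carrier, with 1033, 1146 and 982 CPM. Amacr, a racemase that prepares bile acid precursors for side chain shortening, had 474 ± 56.2 CPM, and Baat, which conjugates bile acids to amino acids, had 432 ± 42.0. Abcc2, the canalicular conjugate exporter, had 245 ± 28.4 CPM, and the uptake carrier Slco2b1 had 177 ± 42.2. Among 39 drug metabolising genes, 9 had a peak. The strongest were the glucuronosyltransferases Ugt2b1 with 1676 ± 292 CPM and Ugt2b5 with 318 ± 38.9, and the cytochromes Cyp2j5 with 468 ± 35.9, Cyp3a13 with 201 ± 50.8, Cyp4a14 with 127 ± 35.4 and Cyp2u1 with 68.4 ± 4.89. Ugt2b genes and cytochromes P450 have close paralogs that can share reads.

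Of 25 genes of glucose and glycogen metabolism, 6 had one. After Ppp1r3c, G6pc, the glucose-6-phosphatase that ends gluconeogenesis, had 382, 1943 and 1148 CPM, and Ppp1r3b, another glycogen-targeting phosphatase subunit, had 483, 1087 and 1572 CPM. Both were lowest in replicate 1, and the median coefficient of variation in this list was 52.9%, against 26.8% over all genes. Pcx, the pyruvate carboxylase, was more even with 663, 536 and 477 CPM. Pck2, the mitochondrial phosphoenolpyruvate carboxykinase, had 22.6 ± 9.46 CPM and Pfkfb3, a regulator of glycolysis, had 4.58 ± 2.92.

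Of 48 genes of fatty acid and triglyceride metabolism, 19 had a peak. Dgat2, which completes triglyceride synthesis, had 791 ± 77.1 CPM, Elovl3, a fatty acid elongase, had 673 ± 274, and Acadm, a dehydrogenase of beta-oxidation, had 663 ± 122. Angptl4, a lipoprotein lipase inhibitor, had 472 ± 199.5 CPM, and Cpt1a, which brings fatty acids into mitochondria, had 388 ± 48.1. Of 30 sterol genes, 11 had a peak. Among them were Abca1, a cholesterol exporter, with 567 ± 159 CPM, and Insig1, a sterol sensor, with 495 ± 105. The synthesis enzymes Nsdhl and Sqle had 92.9 ± 20.5 and 77.1 ± 15.5 CPM. Of 35 amino acid and urea genes, 11 had a peak, led by Cbs, which makes cystathionine, with 665 ± 48.5 CPM, and Got1, an aspartate aminotransferase, with 367 ± 132. The mitochondrial carriers Slc25a15 and Slc25a13 had 240 ± 70.4 and 156 ± 6.17 CPM, Nags, which makes the activator of the urea cycle, had 128 ± 24.2, and Prodh, the proline dehydrogenase, had 41.9 ± 10.2.

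Regulators of hepatocyte genes carried some of the stronger peaks. Of 48 liver transcription factors and nuclear receptors, 27 had a peak and 20 of these were above the median gene per kilobase. Cebpb and Cebpa, bZIP factors of hepatocytes, had 2525, 2402 and 4876 CPM and 1493, 1639 and 1421 CPM. Rxra, the shared partner of many nuclear receptors, had 2458, 2955 and 2522 CPM, and Hnf4a, a central factor of hepatocyte identity, had 1590, 980 and 1360. Cebpb stood out by a high replicate 3, while Rxra and Cebpa were even. Foxo1, which insulin signalling keeps out of the nucleus, had 4 peaks and 571 ± 39.3 CPM, and Atf5, a stress-responsive factor, had 528 ± 53.4. Of 21 clock genes, 7 had a peak. Bhlhe40, a clock repressor, had 230 ± 83.2 CPM. Nr1d2 had 101 ± 12.8 CPM, Tef 59.8 ± 33.1 and Cry2 20.7 ± 4.73, and Csnk1d had 43.4, 48.0 and 49.1 CPM.

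Of 35 genes of hormone and growth factor signalling, 20 had a peak. Il6st, the shared receptor subunit gp130, had 2093, 1663 and 1158 CPM over 3 peaks, and Erbb3, a receptor of the EGF receptor family, had 1179, 1166 and 1157 CPM over 3. Erbb3 was one of the most even genes named here. Egfr had 648 ± 139 CPM, its inhibitor Errfi1 had 556 ± 121, and Irs2, an insulin receptor substrate, had 465 ± 166 over 5 peaks. Socs3, the feedback inhibitor of this cytokine pathway, had 866, 276 and 197 CPM, with replicate 1 far above the rest. Of 29 immediate early genes, 14 had a peak, led by Klf2 with 477 ± 47.5 CPM, Dusp6 with 291 ± 73.8, Ier2 with 235 ± 87.3, Jun with 170 ± 39.9, Zfp36l1 with 168 ± 39.5 and Ier5 with 89.0 ± 16.3.

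Among lists with at least 3 genes that had a peak, the highest median per kilobase, 1967 CPM, was that of endoplasmic reticulum folding and stress, in which 11 of 23 genes had a peak and 10 of these were above the median gene. Besides Hspa5, Sel1l, an adaptor of the degradation of misfolded proteins, had 1773 ± 73.7 CPM, Xbp1, a transcription factor of the unfolded protein response, had 1053, 1061 and 636, and Manf, a secreted stress protein, had 894 ± 124. The co-chaperones Dnajb9 and Dnajb11 had 528 ± 89.2 and 314 ± 53.4 CPM. Of 76 ribosomal protein genes, 68 had no peak, 6 had one, and none of the 6 had a summed level above the median gene of 47.2 CPM. They ran from Rps21 at 4.89 ± 2.57 CPM and Rps20 at 13.0 ± 1.91 up to Rpl8 at 24.5 ± 13.1, Rpl14 at 26.0 ± 7.62 and Rpl23 at 29.1 ± 18.3. Per kilobase, a measure that raises narrow peaks relative to wide ones, 3 of the 6 were above the median gene. No gene of the 20 long noncoding RNAs or the 15 mitochondrially encoded genes had a member peak.

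**Figure D4:**
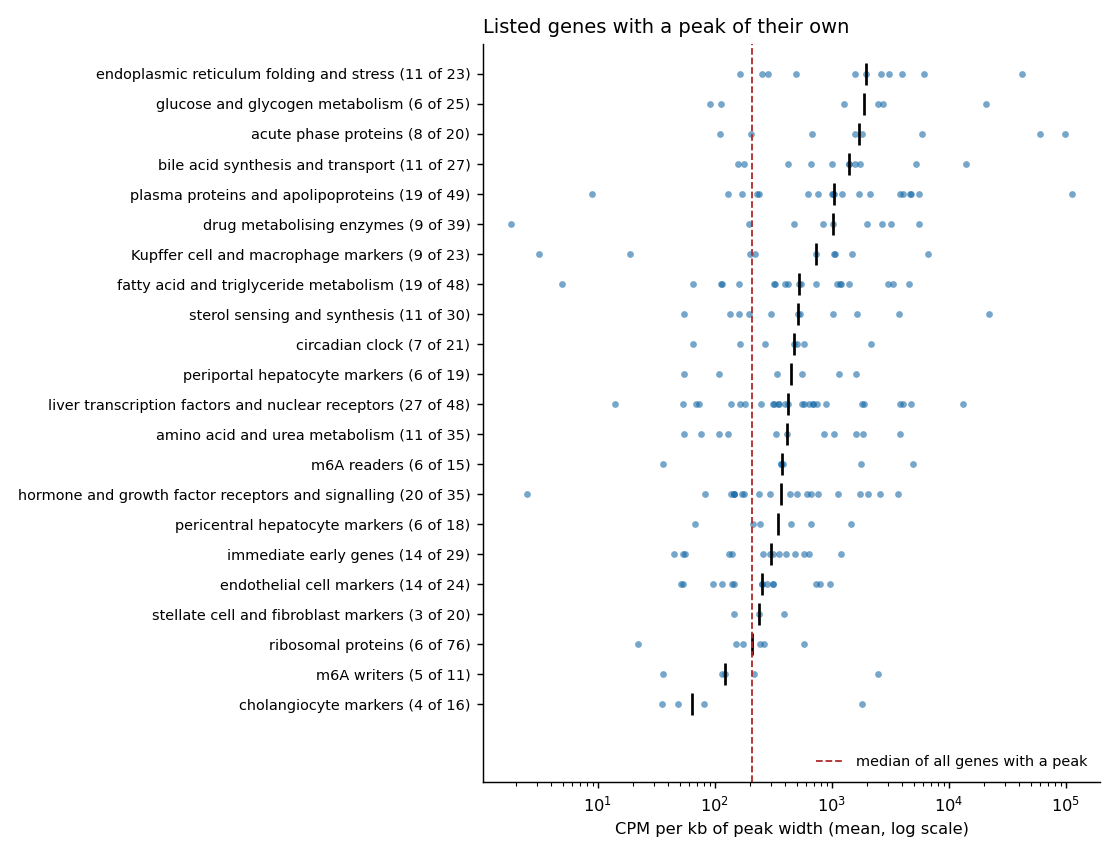
Levels per kilobase of peak width (CPM, log axis) of the listed genes with a peak of their own, a point for each gene and a black bar for the list median, for lists with at least 3 such genes. The dashed line is the median of all 3720 genes (206 CPM per kilobase), and the list medians run from 1967 for endoplasmic reticulum genes down to 64.3 for cholangiocyte markers.

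Part of the machinery of m6A itself carried peaks. Of 11 writer genes, 5 had a peak of their own. Wtap, which holds the writer complex together, had 678, 870 and 883 CPM. Virma, which guides the complex to the 3′ side of mRNAs, had 77.8, 98.9 and 66.3 CPM, and Zc3h13, which keeps it in the nucleus, had 92.0, 24.8 and 60.6. Rbm15, an RNA-binding subunit, had 42.9 ± 9.73 CPM, and Mettl16, a separate methyltransferase of specific RNAs, had 11.5 ± 3.12. Rbm15b and Cbll1 had only peaks shared with other genes, and the remaining 4 writers had no peak. Neither of the 2 erasers, Fto and Alkbh5, had a peak. Wtap was well above the other writers per kilobase, at 2494 CPM against 216 for Virma and 36.0 for Zc3h13. The summed peak width was 1644 bases for Zc3h13, 375 for Virma and 325 for Wtap, which lowers the level of Zc3h13 per kilobase.

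Of 15 reader genes, 6 had a peak. Ythdf3, a cytoplasmic YTH reader, led with 2153, 2086 and 2437 CPM over 2 peaks. Eif3a, a translation initiation subunit, had 351, 359 and 490 CPM. Prrc2a had 111 ± 16.2 CPM, Elavl1, an RNA-stabilising protein, had 91.8 ± 16.5, the nuclear reader Ythdc1 had 45.3 ± 2.63, and Hnrnpa2b1 had 19.2 ± 3.08. Per kilobase, Ythdf3 had 4945 CPM and Eif3a 1777.

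The label of healthy liver was set against markers of its cell types. A few hepatocyte genes such as Fga, Crp and Hp led the profile, while many listed hepatocyte genes had no peak. The plasma protein genes held 9.66% of the reads, of which Fga alone gave 7.95%. The bile acid genes held 0.560% and the liver transcription factors 1.27%. Among zonal markers, 6 of 18 pericentral genes had a peak, led by Slc1a2, a glutamate transporter, with 202, 224 and 276 CPM, Tbx3 with 144 ± 40.6 and Cyp7a1, which catalyses the limiting step in making bile acids, with 133 ± 118. Lect2 had 73.5 ± 12.5 CPM, and Rnf43 and Znrf3, which limit Wnt signalling, had 42.8 ± 14.5 and 36.9 ± 8.66. Of 19 periportal genes 6 had one, led by Pigr, the immunoglobulin A transporter, with 361 ± 55.1 CPM. Aldh1b1, an aldehyde dehydrogenase, had 168, 169 and 495 CPM, and Ctsc, a lysosomal protease, had 167, 127 and 398. Both were high in replicate 3. Cdh1 had 110 ± 5.58 CPM, Uroc1 8.10 ± 5.84 and Arg1 2.71 ± 0.383.

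Among other cell types, 9 of 23 Kupffer cell and macrophage markers had a peak, with a summed level of 2014 to 3091 CPM. Cd5l, a secreted macrophage protein, had 1009, 1055 and 1907 CPM, Slc40a1, the iron exporter ferroportin, had 287, 298 and 418, and Id3 had 281, 244 and 251. The defining Kupffer marker Clec4f had 180, 158 and 224 CPM, Cd163 had 93.3 ± 15.0, and Cd14, a receptor of endotoxin, had 434, 89.8 and 133. Replicate 1 was thus high for Cd14 and not for Clec4f. Of 24 endothelial markers, 14 had a peak, with a summed level of 1110 to 1562 CPM. They were led by Kdr, the VEGF receptor, with 202 ± 40.2 CPM, Fcgr2b with 199.5 ± 33.3, Dnase1l3 with 191 ± 91.7 and Wnt2 with 147 ± 16.3. Ptprb and Cdh5, both of endothelial junctions, had 138 ± 8.19 and 138 ± 41.0 CPM. Of 20 stellate cell and fibroblast markers, 3 had one: Colec11 with 165 ± 19.5, Pdgfra with 101 ± 35.4 and Pdgfrb with 54.1 ± 13.2 CPM.

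Of 16 cholangiocyte markers, 4 had a peak, with a summed level of 389 to 480.2 CPM in the 3 libraries. Of these, Cd24a had 7.79, 12.8 and 21.5, Sox9 had 19.1, 3.92 and 2.52, and Pkhd1 had 16.2, 1.32 and 1.01. Cftr, Cldn4 and Ehf had peaks below the minimum. Sdc1, which hepatocytes also express, was the only one of 11 B and plasma cell markers with a peak, at 1033 ± 126 CPM, and Klf1 the only one of 9 erythroid markers, at 7.34 ± 1.59. No member peak was annotated to 1 gene alone among 17 T and NK cell, 10 neutrophil or 11 mesothelial and pancreatic acinar markers.

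As groups, strong peaks resembled one another between libraries more closely than weak ones. Over the 5947 members, Pearson's correlation of log2 CPM was 0.897 between replicates 1 and 2, 0.890 between 1 and 3 and 0.911 between 2 and 3, and Spearman's was 0.881, 0.871 and 0.901. These points share their libraries, and peaks are not independent replicates. The rule left out the 676 peaks that reached 20 reads in only 2 libraries. The agreement and spread given here thus hold for members alone and leave out many peaks on which the libraries disagreed. Levels were within 2-fold in 77.8%, 76.0% and 80.3% of the peaks for these pairs. The median coefficient of variation was 29.5%, with quartiles of 17.6% and 46.4%. It was above 100% in 48 peaks and under 10% in 552. The common biological coefficient of variation that edgeR estimated was 0.417.

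The spread fell with the level. In 5 equal groups of members from the weakest to the strongest, with median levels of 8.26, 17.3, 32.4, 68.7 and 237 CPM, the median coefficient of variation was 43.9%, 39.9%, 31.3%, 24.9% and 17.1%. The counting error expected at the median reads was 8.21%, 5.67%, 4.14%, 2.84% and 1.53%, which leaves out any difference between the samples themselves. It is an expected value and not a median of values estimated from 3 libraries, so the 2 series are not the same measure. Peaks of 75 bases or less were 24.9% of the weakest group and 1.09% of the strongest, and 55.8% of the single-gene peaks of the weakest group lay in segment 5 of the gene span, against 69.9% in the strongest. The fall is one of group medians and did not hold for every leading peak. The coefficient of variation was 31.5% for the Serpina3k and Serpina3m peak and 53.9% for Ppp1r3c, but 3.07% for Crp and 7.11% for Glyctk.

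**Figure D5:**
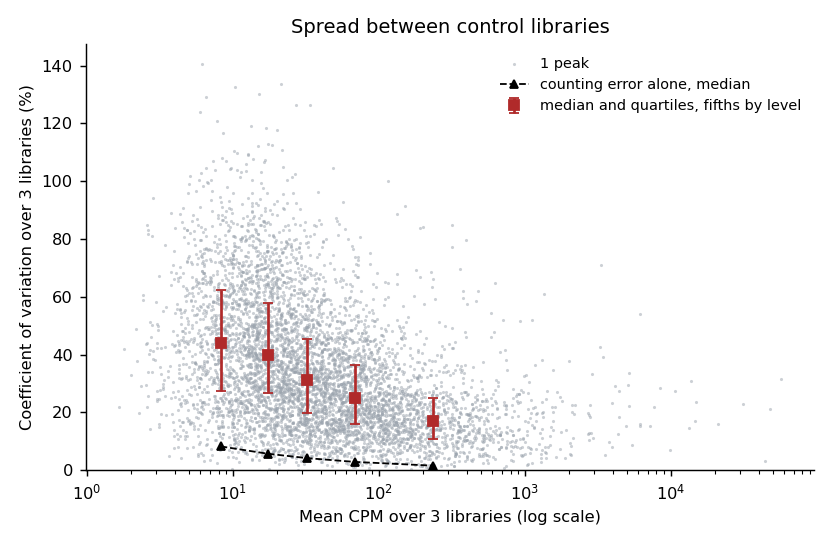
Coefficient of variation over the 3 control libraries (%) against the mean level (CPM, log axis), a grey point for each member. Red squares and bars are the median and quartiles of 5 equal groups by level, which fall from 43.9% to 17.1%. Black triangles are the counting error expected at the median reads of each group, 8.21% to 1.53%.

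After TMM scaling, which centres the libraries on one another, replicate 1 was the highest for 35.0% of members, replicate 2 for 31.7% and replicate 3 for 33.4%. Peaks listed without reads numbered 957 in replicate 1, the shallowest library, 721 in replicate 2 and 732 in replicate 3. Far fewer peaks, 146, 131 and 130 in these libraries, had some reads but fewer than 20. Whether an entry without reads always means that none was found is not stated in the sources used here. A level at least 4-fold above or below both other libraries was found in 231 members (3.88%). Peaks without reads in a library are not members and could not be counted among them. Of the 231 members, 22, 9 and 13 were high and 70, 63 and 55 were low in replicates 1, 2 and 3. From the weakest to the strongest, the 5 level groups held 90, 98, 31, 9 and 3 of the 231.

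Among members above the median level, predicted gene models left out, the least even was a peak of Socs3 (chr11:117967054-117967253), which had 1560, 780 and 39 reads and a coefficient of variation of 104%. A peak of Mt2, a metallothionein, shared with an unnamed gene, had 3702, 1451 and 476 reads. Both were lowest in replicate 3. Cd180, a receptor of B cells and macrophages, had 93, 579 and 1573 reads, and Tifa, an adaptor of innate immune signalling, had 4610, 641 and 2307. Cyp7a1 (chr4:6268062-6268261) had 2082, 247 and 4961 reads, so that replicate 2 was low by a wide margin, at 13.1 CPM against 137 and 250 CPM. Others of the 8 least even, again without predicted models, were a peak within Fgfr2 and Tacc2 with 1794, 463 and 565 reads, Rab11fip4 with 1538, 698 and 306, and B3galt1 with 1174, 308 and 451.

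The most even peak at that level was that of Eif5b, a translation initiation factor, with 2508, 3123 and 3301 reads. Ppp1r15b had 10865, 13728 and 14328 in 1 of its peaks, and Rnf185, a ubiquitin ligase of the endoplasmic reticulum, had 4901, 6270 and 6486. Inip, part of a complex that responds to DNA damage, had 1301, 1608 and 1714 reads. The rest were peaks of Shb, of Selenoi, of Hagh with Fahd1, and of Rab43 with a predicted model. Peaks without a gene name were left out, and the coefficients of variation of these 8 were at most 1.31%, the measure by which they were picked.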

How the data were processed

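IP read counts of 3 control liver libraries were analysed. Per the file headers, the deposited table lists raw read counts and RPM for 1 set of merged peaks. The authors' counts are whole numbers. The deposited RPM, treated as a score, equals each count over the library's total in distinct peaks, scaled to 1000000, within 5.0e-06, and served only as this check. The table lists a peak once per annotated gene, so its 8649 lines gave 7460 distinct peaks. The submitters' processing notes name bcl2fastq 2.17, fastp, Bowtie2 2.2.8 and HISAT2. Not given in the sources used here are the peak caller, read counter, use of strand, genome build and annotation. Peaks may have been called with the ligated livers, which the sources do not settle.

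Libraries were scaled with TMM (factors 0.994, 0.982 and 1.03) in edgeR 4.0.16 under R 4.3.3, whose dispersion estimate gave the biological coefficient of variation and was tested on simulated data. DESeq2 1.42.0 gave other size factors. A peak's place is its centre between annotated gene start and gene end, along the strand, for peaks of 1 gene. Genes were summed over such peaks.

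Members and lists were chosen with earlier results of these data known. Named were the 20 strongest peaks and genes, the 5 genes with most peaks, the 5 strongest peaks per segment of the span, 5 peaks on each side of the threshold, the 8 most and 8 least variable peaks above the median level, up to 6 members of each list, and all writers, erasers and readers with peaks. Predicted models were not named, and some peaks and genes that these rules pick are not reported here. The alternatives tried were other read minimums, scalings, rankings and definitions of place, and each library left out in turn. No sequence is shown.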

Additional observations from a re-analysis of the deposited data

How the results depend on the processing

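The number of members lay between 5646 and 6292 under other read minimums and with a library left out. The share of the 10 strongest peaks stayed between 25.4% and 28.1% and that of the 100 strongest between 49.3% and 51.5%. All 20 strongest peaks were the same under library totals and under DESeq2 size factors, and 19 of 20 with each library left out. Of the 20 strongest genes, 14 were the same when peaks of several genes counted for each of them. The share of peaks in segment 5, 65.0%, was 68.0% with only the strongest peak of each gene, 60.3% with every annotated gene and 68.6% in genes of at least 5 kb. The share of reads there, 57.8%, was 54.0% with every annotated gene, 60.8% in genes of at least 5 kb and 68.0% without Fga and Crp. Counting peaks 200 bases apart or less as 1, an alternative added after seeing the data like the last, left 165 of 289 genes with 3 or more peaks. With at least 50 reads the median coefficient of variation was 28.2% and the common one 0.388. With a library left out these ranged from 23.3% to 25.9%, lower because 2 values spread less than 3, and from 0.409 to 0.436. Of 845 alternative values of 169 named genes, 8 moved by more than 1 SD, all with a library left out. Leaving out 1 of 3 values cannot by itself move their mean by 1 SD. Few such moves were thus possible, and their small number says little about robustness. Other scaling changed no value by more than 1.30%. No paired analysis was possible because only 1 group is described. Having 3 libraries limits the precision of each SD.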

Other observations

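Further transcripts differed between the control libraries or between related genes, and were picked after their values had been seen. Onecut1, a transcription factor of hepatocytes and bile ducts, had a strong peak shared with an unnamed gene (chr9:74889700-74889874) with 69615, 91146 and 12138 reads, or 4593, 4823 and 611 CPM. Its other peak had 1270, 1404 and 226 reads. Replicate 3 was thus low in both by a similar margin. Nipal1, a magnesium transporter, had 1889, 411 and 2906 reads and Glt1d1 had 1416, 222 and 2232, and both were low in replicate 2, as Cyp7a1 was. Slc16a12, a creatine transporter, had 194, 1359 and 2263 reads, Dsc2, a desmosomal cadherin, 108, 837 and 1443, and Prg4, a lubricating glycoprotein, 80, 684 and 1319. These were low in replicate 1. In all, 25 members above the median level lay at least 4-fold from both other libraries. Low values were found for 9, 5 and 10 in replicates 1, 2 and 3, high values for 1, 0 and 1, and a predicted model counts under both. The cause was not tested.

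The fibrinogen chains, which are made in hepatocytes and joined into 1 protein, had very different IP levels. Per kilobase of peak width Fga had 113516 CPM, whereas Fgb, the beta chain, had 228 in a single narrow peak with 35.5, 11.7 and 4.08 CPM. Alb, which encodes albumin, had a summed 148, 57.4 and 111 CPM, also in a narrow peak. Transcript levels were not measured here, so how much of this is methylation was not tested.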
